A study of Mus musculus with 6 samples.

Results

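The ubiquitin-specific proteases (USPs) were followed in muscle satellite cells that had lost the proteasome subunit Rpt3. Their members were all genes on the array whose name begins with Usp and a number, except Usp14 and Usp18, and each gene was represented by its brightest probe over the 6 arrays. This gave 50 genes, with 76 probes, of 34797 gene names or unnamed probes on the array. Satellite cells, from which muscle is regenerated, were sorted from mice of strain C57BL6: 3 were Rpt3 null in these cells (the knockout group) and 3 were controls. Rpt3, encoded by Psmc4, is an ATPase of the 19S particle, which feeds ubiquitin-tagged proteins into the 20S core of the proteasome. The Cre driver, the exact allele of either group and the age and sex of the mice are not given in the sources used here. RNA, of which 5 ng was amplified over the whole transcriptome, was labelled with Cy3.

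USPs are the largest family of deubiquitinases, the proteases that cut ubiquitin from proteins or cut ubiquitin chains. They can act before the proteasome: by removing a chain they can spare a substrate from degradation, and by taking free chains apart they can return ubiquitin to the pool. Single members are known for narrow substrates, among them histones, the p53 ligase Mdm2, cell surface receptors and signalling kinases, and several have been linked to muscle wasting or to myogenic differentiation.

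The targeted gene was lower in every knockout mouse. Psmc4 had a normalised log2 signal of 2.003, 2.02 and 1.52 on knockout arrays 1, 2 and 3 and of 2.89, 2.58 and 2.83 on control arrays 1, 2 and 3, so the groups did not overlap. The log2 difference was -0.92 (SE 0.23; limma, adjusted p = 0.406), which left 52.8% of the control signal. Its only probe crosses a splice junction, and whether it lies in the deleted part is not given in the sources used here. Over the arrays, 44.2% to 57.9% of probes were well above background, with knockout 3 the lowest. Knockout 3 also stood apart on the first principal component (29.5% of the variance), at 72.0 where the others lay between -25.2 and -5.23. Slide row was inferred from a position number in the names of the scanner output and is not stated in the sample labels. Read this way, knockout 1 and 2 lay in slide row 1 and the other arrays in slide row 2. A value with slide row as a block therefore rests on knockout 3 against the controls. All 12 satellite cell markers of a list, Pax7 among them, passed the filter given below, 9 of them above background on all 6 arrays. Markers of other cells were also measured: 8 of 8 for fibro-adipogenic progenitors, 8 of 8 for endothelium, 4 of 10 for neutrophils, 5 of 8 for macrophages, 3 of 5 for red blood cells and 3 of 8 for muscle fibres passed. In sorted bulk RNA, fewer cells of a type and less RNA per cell cannot be told apart.

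A member was tested only if all 3 knockout arrays, or all 3 control arrays, read its probe well above background. Of the 50 USP genes, 33 passed, 32 of them with signal above background on all 6 arrays. The exception was Usp11, which was not well above background on knockout 3. The 17 genes that did not pass were Usp13, Usp20, Usp24, Usp26, Usp29, Usp30, Usp34, Usp35, Usp37, Usp39, Usp40, Usp43, Usp44, Usp45, Usp49, Usp53 and Usp9y. In 7 of these, among them the mitochondrial enzyme gene Usp30 and the Y-linked Usp9y, no array was above background, so no direction is given for them. The other 10 were above background on 1 to 4 arrays. None of the 17 was detected on knockout 3, the array with the fewest detected probes overall: it had 32 USP genes above background, against 37 to 41 on each of the other arrays.

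**Figure D1:**
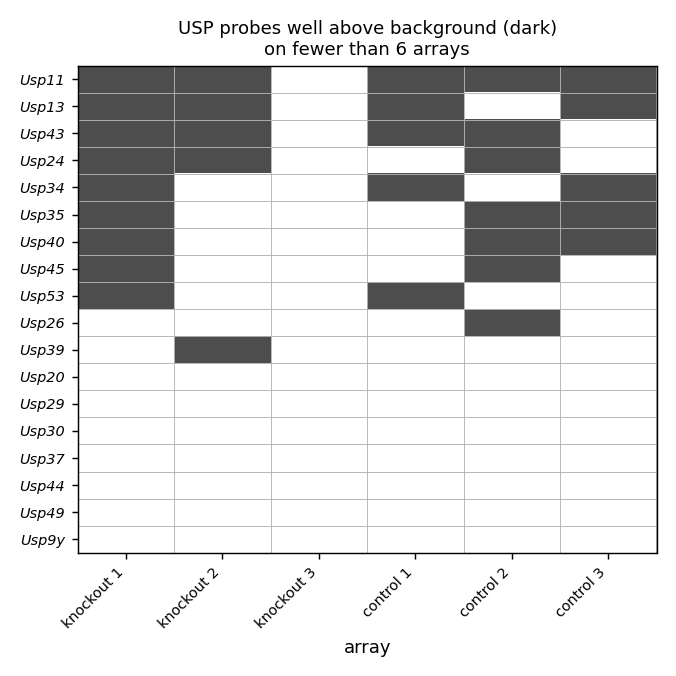
Detection of the 18 USP genes that were not well above background on all 6 arrays. Rows are genes, columns are arrays, and a dark cell marks a probe well above background; knockout 3 has no dark cell, and the 7 bottom rows have none on any array.

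What a probe reads limits what its gene's value can say. The probes that cross an exon junction, by their positions on mouse build mm9, show this for 4 members. The whole 60 bases of each are given here. Probes above background on every array (Usp9x and Usp47, each the gene's only probe) are set beside probes above it on none (Usp50 and Usp54). For the latter, another probe under the same gene name was above background:
Usp9x: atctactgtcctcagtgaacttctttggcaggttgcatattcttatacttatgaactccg
Usp47: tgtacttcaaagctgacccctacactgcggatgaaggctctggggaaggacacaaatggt
Usp50: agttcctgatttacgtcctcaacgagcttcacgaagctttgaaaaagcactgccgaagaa
Usp54: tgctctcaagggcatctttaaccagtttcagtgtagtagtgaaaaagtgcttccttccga
No letters are in capitals, as no part of a probe was singled out. The Usp9x probe (chromosome X, 12738630 to 12738777, + strand) and the Usp47 probe (chromosome 7, 119236944 to 119245254, + strand) were above background on all 6 arrays and stand for their genes. The Usp50 probe (chromosome 2, 126603832 to 126605713, - strand), made for the RefSeq transcript NM_029163, was above background on none. The value of Usp50 therefore comes from another probe, for the Ensembl transcript ENSMUST00000136319, which lies 68.9 kb away on the same strand. The probe of Usp8 lies between them on the other strand, and whether the distant probe reads Usp50 was not tested. The Usp54 probe (chromosome 14, 21410786 to 21423283, - strand), which begins at base 969 of its transcript, was also above background on no array, while the probe that stands for Usp54, at base 5701, was above it on all 6. Usp15, Usp27x and Usp33 likewise each had 1 probe above background on all arrays and another above it on none.

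No USP gene rose or fell in the knockout cells at the threshold, an adjusted p of 0.05 over all features. By limma 0 of the 33 tested members passed in either direction, as did 0% of all features tested (0 of 19199). At an unadjusted p under 0.05 there were 2 members with a higher mean and 0 with a lower one, beside 2.84% of all features higher and 4.27% lower. Together these 2 are 6.06% of the members tested, near the 7.10% of all features. The 2 were Usp5 and Usp38. Without knockout 2 or control 3 the count of higher members was 0, beside 2.18% and 2.38% of all features. Without each other array it was 1, beside 2.40% to 4.47% of all features. The median log2 difference over the 33 members was 0.068, beside 0.043 over all features. With slide row as a block it was -0.10, beside 0.018 over all features. Of the members, 20 had a higher and 13 a lower mean in the knockout cells, beside 10764 and 8435 of all 19199 features. The higher and lower counts of the lists below stand beside these same figures. Differences of the members ran from -0.47 for Usp46 to 1.07 for Usp5.

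The size of what could have gone unseen is given by the intervals. For 23 of the 33 members, or 69.7%, the 95% interval of the difference lay within a 2-fold change in either direction, beside 63.0% of all features. The interval reached past 2-fold for Usp5, Usp38, Usp19, Usp42, Usp51, Usp6nl and Usp3 on the higher side, and for Usp33, Usp46, Usp11 and Usp3 on the lower side. Knockout and control values did not overlap in 2 members, or 6.06%, beside 10.6% of all features: Usp38 was the 1 higher, beside 4.96%, and Usp21 the 1 lower, beside 5.67%. With any single array left out this count was 3 to 7, since fewer arrays overlap less often. The share of all features was not computed for those fits, so that range has no background beside it.

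**Figure D2:**
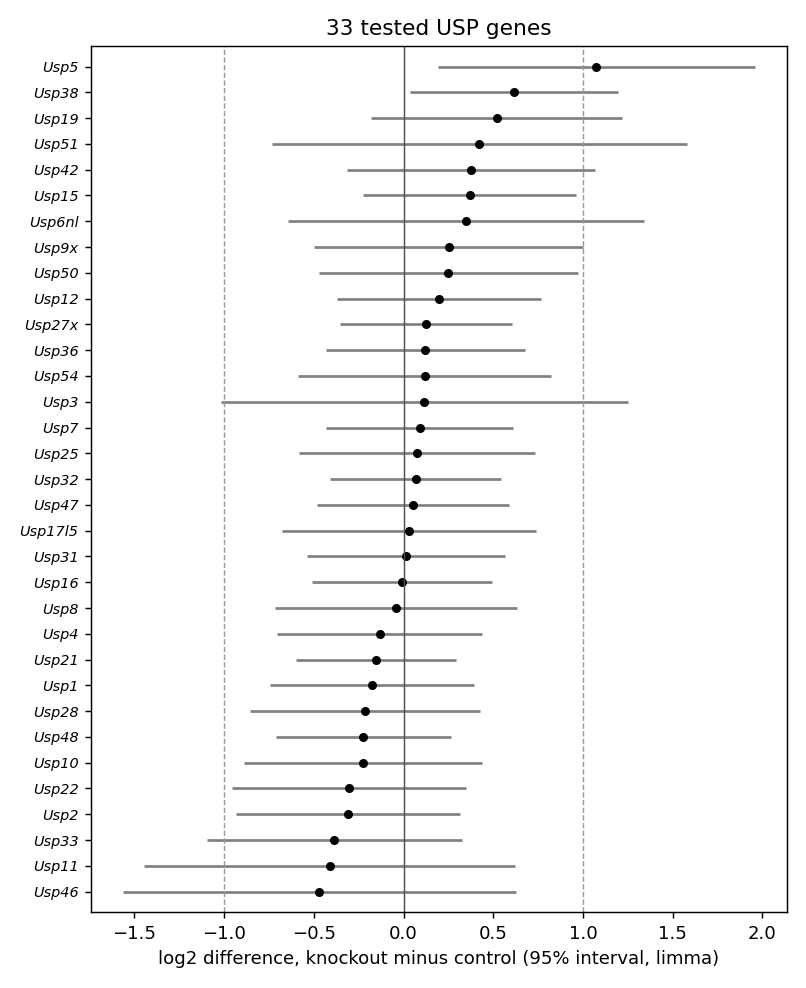
Log2 difference between knockout and control cells for each of the 33 tested USP genes, from -0.47 (Usp46) to 1.07 (Usp5). Points are limma estimates, bars their 95% intervals, and dashed lines mark a 2-fold change; the interval excludes 0 for Usp5 and Usp38, and 23 intervals lie between the dashed lines.

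The family median did not separate the groups. Taken relative to each gene's mean over the 6 arrays, the median USP gene stood at 0.11, 0.016 and -0.16 on knockout 1, 2 and 3 and at -0.097, 0.091 and 0.071 on control 1, 2 and 3. The knockout arrays thus spanned the range of the controls, with knockout 3 the lowest array of all. Of the 33 members, 10 had their lowest signal on knockout 3, and 9 on control 3. On knockout 2 a single member was lowest and 8 were highest.

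Among enzymes of free ubiquitin chains, mitochondria and the endoplasmic reticulum, 3 of 6 genes were tested and all 3 had higher means, with 0 past the threshold. Usp5, which encodes isopeptidase T, the enzyme that takes apart unanchored ubiquitin chains, had the largest difference of the family. Its log2 signal was 1.44, 1.16 and 0.034 on knockout 1, 2 and 3 and 0.13, -0.44 and -0.29 on control 1, 2 and 3. Knockout 1 and 2 lay above every control, and knockout 3 lay below control 1, so the groups overlapped. Knockout cells averaged 0.88 ± 0.74 and controls -0.20 ± 0.29 (SD, n = 3 each), a 2.11-fold difference (log2 1.07, SE 0.38; limma, adjusted p = 0.605). The 95% interval ran from 1.14-fold to 3.88-fold, and the exact permutation p was 0.2. With arrays weighted by their spread it was the one member called, at 1.38 (limma, adjusted p = 0.0471); that fit gave knockout 2 a weight of 6.04 and knockout 3 one of 0.238, and the adjusted p over the alternatives ran from 0.0471 to 0.96. With slide row as a block, for which knockout 3 stands alone, Usp5 differed by 0.23. A fit within slide row 2 compares the same arrays, so its value of 0.23 is the same comparison. The probe of Usp5 lies on chromosome 6, 124765054 to 124765113 of mm9.

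The order of Usp5 over the knockout arrays was not particular to it. The percentage of probes well above background fell in the same order, at 57.9, 51.7 and 44.2 on knockout 1, 2 and 3. So did the USP median given above, the macrophage markers (0.51, 0.24 and -0.36) and the satellite cell markers. Markers of fibro-adipogenic progenitors, endothelium and muscle fibres did not, being higher on knockout 2 than on knockout 1. The median of the 14 genes of the 20S core, on the scale of a difference from each gene's mean, stood at 0.86, 0.68 and 0.090 on knockout 1, 2 and 3 and between -0.69 and -0.37 on the controls. The 4 tested neutrophil markers stood at 1.37, 1.21 and -0.78 on knockout 1, 2 and 3 and between -0.70 and -0.42 on the controls; of the 10 on the list, none was above background on all 6 arrays. The 3 tested red blood cell markers stood between 0.53 and 0.97 in knockout and between -1.50 and -0.088 in control cells. The satellite cell markers stood between -0.41 and -0.015 in knockout and between -0.19 and 0.41 in control cells. The part of these cell types, or of the detection level of each array, in the Usp5 signal was not tested.

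**Figure D3:**
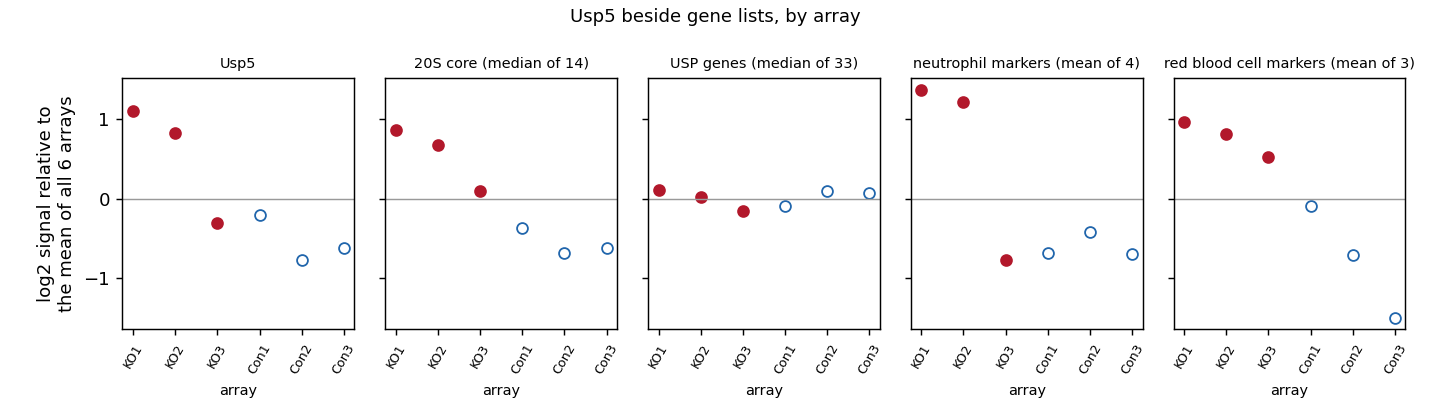
Log2 signal on each array, relative to the mean of all 6, for Usp5, the median of the 20S core genes, the median of the 33 USP genes, and the means of neutrophil and red blood cell markers. Filled points are knockout (KO) and open points control (Con) arrays; Usp5 and the 20S core are highest on knockout 1 and 2 and lower on knockout 3, while the USP median stays between -0.16 and 0.11.

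Usp19 has a form anchored in the endoplasmic reticulum and is known from muscle wasting. Its signal was 0.23, 0.64 and -0.0036 on knockout 1, 2 and 3 and -0.72, 0.21 and -0.18 on control 1, 2 and 3. Knockout 2 was the highest array and control 1 the lowest, with the rest intermixed. The difference was 0.52 (SE 0.30; limma, adjusted p = 0.869), falling to 0.23 after blocking on slide row and to 0.27 without control 1. Usp25, linked to degradation from the endoplasmic reticulum, differed by 0.073 (SE 0.28), and Usp13, Usp30 and Usp35 did not pass the filter.

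Of 16 genes tied to TGF-beta, Wnt and other signalling, 10 were tested: 7 had higher and 3 lower means, and 0 passed the threshold. Usp38 was the 1 member with a higher mean whose groups did not overlap. Its signal was -0.10, 0.23 and 0.072 on knockout 1, 2 and 3 and at -0.66, -0.14 and -0.83 on control 1, 2 and 3, so every knockout array was above every control, by a narrow margin between knockout 1 and control 2. The means were 0.068 ± 0.17 and -0.55 ± 0.36 (SD, n = 3 each), a 1.53-fold difference (log2 0.61, SE 0.25; limma, adjusted p = 0.672). An exact permutation test gave p = 0.1, the lowest it can reach in this design. Its value was 0.62 with slide row as a block, so unlike that of Usp5 it was as large for knockout 3 alone, and 0.33 with normexp background correction. The probe lies on chromosome 8, 83505000 to 83505059 of mm9.

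Usp15, which acts on TGF-beta receptors and SMAD proteins, had a signal of 0.61, 0.080 and 0.051 in knockout and -0.33, -0.22 and 0.18 in control samples. Control 3 lay above knockout 2 and 3, and the difference was 0.37 (SE 0.26; limma, adjusted p = 0.925). Usp42, an enzyme known to stabilise p53, stood at 3.58, 3.07 and 2.64 in knockout and 2.72, 3.02 and 2.43 in control samples. Only knockout 1 and 2 exceeded the controls. Its difference was 0.37 (SE 0.30; adjusted p = 0.955, limma), but -0.08 after blocking on slide row.

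The 3 genes with lower means in this group, Usp46, Usp11 and Usp4, were all lowest on knockout 3. Usp46, which works together with the partner protein Wdr48, had a signal of 1.43, 1.55 and -0.28 on knockout 1, 2 and 3 and of 1.11, 1.53 and 1.46 in control samples. Knockout 1 and 2 lay within or just above the controls and knockout 3 far below all arrays. The difference was -0.47 (SE 0.47; limma, adjusted p = 0.981), 0.12 without knockout 3, and -1.65 (adjusted p = 0.214) after blocking on slide row. Usp11, which acts in DNA repair and TGF-beta signalling, was also lowest on knockout 3: -1.20, -0.33 and -1.90 in knockout against -1.01, -1.10 and -0.074 in control samples. It differed by -0.41 (SE 0.45; limma, adjusted p = 0.983), by -0.03 without knockout 3, by -0.09 without control 3, by -0.82 without knockout 2, by 0.23 with weighted arrays and by -1.17 after blocking on slide row. In the other direction, Usp54 stood at 5.59 on knockout 3, above the 4.47 to 4.91 of the other arrays, with a difference of 0.12 (SE 0.30; adjusted p = 0.983, limma) that was -0.19 without knockout 3 and 0.74 after blocking on slide row. The other tested genes of the group, Usp12, Usp31, Usp32 and Usp4, differed by -0.13 to 0.20.

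**Figure D4:**
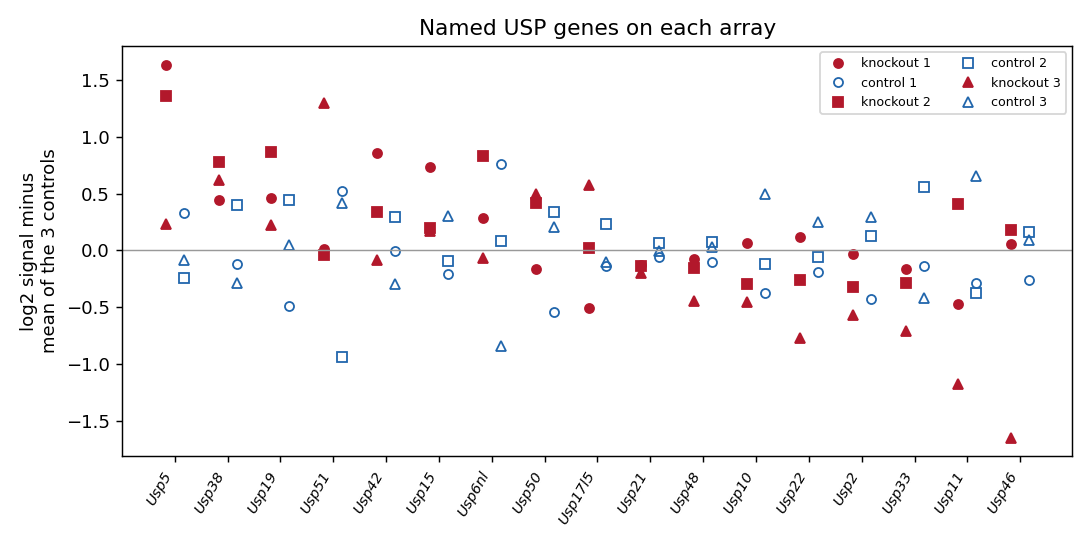
Log2 signal of 17 USP genes on each array, relative to the mean of the 3 controls, with 1 symbol per replicate. Filled red symbols are knockout and open blue symbols control arrays. Knockout and control symbols do not overlap for Usp38 and Usp21. The knockout 3 triangle lies lowest for every plotted gene with a lower mean (Usp33, Usp2, Usp22, Usp48, Usp46, Usp11, Usp21 and Usp10). It lies highest for Usp51, Usp50 and Usp17l5.

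Of 9 histone and chromatin deubiquitinases, 7 were tested; 4 had higher and 3 lower means, and 0 passed the threshold. Usp22, the subunit of the SAGA coactivator that removes ubiquitin from histones, had a signal of 1.34, 0.97 and 0.46 in knockout and 1.04, 1.17 and 1.48 in control samples. Knockout 3 was the lowest and control 3 the highest, and the difference was -0.30 (SE 0.28; limma, adjusted p = 0.969), or -0.77 with slide row as a block. Usp21, a histone H2A deubiquitinase, was among the steadiest genes: 4.19, 4.18 and 4.12 in knockout against 4.26, 4.38 and 4.31 in control samples. The groups did not overlap, but the difference was only -0.15 (SE 0.19; adjusted p = 0.983, limma; exact permutation p = 0.1), with means of 4.16 ± 0.036 and 4.32 ± 0.060 (SD, n = 3 each). In signal this left 89.9% of the control level, and over the alternatives the difference lay between -0.22 and -0.12.

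Usp51, another histone deubiquitinase, had its highest value, 0.42, on knockout 3 and its lowest, -1.82, on control 2; the other 4 arrays lay between -0.92 and -0.36. The difference of 0.42 (SE 0.50; limma, adjusted p = 0.983) became -0.02 without knockout 3, -0.05 without control 2, 0.05 with weighted arrays and 1.30 after blocking on slide row. A second probe that overlaps the first placed the same 2 arrays at the ends, at 0.21 and -1.78. Usp36, a nucleolar deubiquitinase, gave different readings by probe. The brightest probe, at base 5343 of the transcript, stood at 1.53, 1.68 and 1.65 in knockout and 1.46, 1.86 and 1.18 in control samples, with a difference of 0.12 (SE 0.24; limma, adjusted p = 0.983). A dimmer probe at base 2940, also above background on all 6 arrays, stood at -0.60, -0.41 and -0.56 in knockout and at -1.45, -1.12 and -1.57 in control samples. There the groups did not overlap, and the means differed by 0.85; this probe was not among the features tested. The other tested chromatin genes, Usp3, Usp16 and Usp27x, differed by 0.12, -0.0098 and 0.13. In all, 8 members had more than 1 probe passing the filter, and in 4 of them (Usp16, Usp31, Usp48 and Usp7) these probes disagreed in sign.

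Of 9 genes listed under the DNA damage response and the p53 pathway, 6 were tested. Of these, 2 had higher and 4 lower means, and 0 passed the threshold. All 6 intervals lay within a 2-fold change, beside 63.0% of all features. Usp42 and Usp11, tied above to p53 and to DNA repair, were listed under signalling, and their intervals reached past 2-fold. Usp7, which deubiquitinates Mdm2 and p53, stood at 4.27, 4.32 and 4.001 in knockout and 3.96, 4.38 and 3.98 in control samples. The difference was 0.090 (SE 0.23; limma, adjusted p = 0.983), and the interval ran from 0.741-fold to 1.53-fold. A second probe of Usp7 differed by -0.27. Usp10, another p53 deubiquitinase and a partner of the stress granule protein G3bp1, had a signal of 0.82, 0.47 and 0.30 in knockout and 0.39, 0.64 and 1.25 in control samples. The difference of -0.23 (SE 0.29; limma, adjusted p = 0.983) was 0.02 without control 3 and -0.11 without knockout 3.

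Usp48 was close to even across arrays, at 2.82, 2.75 and 2.45 in knockout and 2.79, 2.97 and 2.93 in control samples, with a difference of -0.22 (SE 0.21; limma, adjusted p = 0.971). Usp47, which is known from base excision repair, stood at -0.86, -0.74 and -0.74 in knockout and -1.17, -0.80 and -0.54 in control samples, so the knockout values fell inside the control range. Its difference was 0.052 (SE 0.23; limma, adjusted p = 0.988). Usp1, which acts with Wdr48 on the Fanconi anaemia pathway, and Usp28 differed by -0.18 and -0.21.

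Of 5 genes of endosomes and receptors, 4 were tested; 1 had a higher and 3 a lower mean, and 0 passed the threshold. Usp33, which acts on receptors and their adaptors, stood at 2.04, 1.91 and 1.49 in knockout and 2.06, 2.76 and 1.78 in control samples. Knockout 3 was lowest and control 2 highest, and without control 2 the difference of -0.39 (SE 0.31; limma, adjusted p = 0.955) was -0.11. Usp2, an enzyme under circadian control that acts on cyclin D1, stood at 1.04, 0.75 and 0.499 in knockout and 0.65, 1.20 and 1.37 in control samples, a difference of -0.31 (SE 0.27; adjusted p = 0.966, limma). The X-linked Usp9x, a large enzyme of endosomes and cell polarity, stood at 1.38, 1.61 and 0.73 in knockout and 0.86, 0.63 and 1.47 in control samples. It differed by 0.25 (SE 0.32; limma, adjusted p = 0.983), and by -0.26 after blocking on slide row. Usp8, which acts with the STAM proteins at endosomes, differed by -0.041 (SE 0.29), and by 0.54 after blocking on slide row.

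A few genes carry the name without the activity. Usp6nl encodes a GTPase-activating protein of Rab5 and not a deubiquitinase; its signal was -1.07, -0.52 and -1.42 in knockout and -0.59, -1.27 and -2.20 in control samples, a difference of 0.35 (SE 0.43; limma, adjusted p = 0.983) that was -0.07 without control 3. Usp50, whose product is not known to cut ubiquitin, stood at 1.37, 1.95 and 2.04 in knockout and 0.996, 1.87 and 1.75 in control samples on the distant probe described above. Its difference of 0.25 (SE 0.31; adjusted p = 0.983, limma) was -0.02 without control 1. Usp39, a splicing factor with an inactive USP domain, was above background on 1 of 6 arrays and was not tested. The probe named Usp17l5 carries the accession of the gene now called Usp17lc, a member of a cluster of near-identical copies, so its signal cannot be assigned to 1 copy. The values were -1.49, -0.96 and -0.41 in knockout and -1.12, -0.75 and -1.08 in control samples, with a difference of 0.031 (SE 0.30; limma, adjusted p = 0.993).

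The other deubiquitinase families gave larger single differences, again with 0 past the threshold. Of 36 genes, 30 were tested, with a median of 0.11. Of these, 19 had higher and 11 lower means, beside 10764 and 8435 of all 19199 features. At an unadjusted p under 0.05 there were 2 higher and 1 lower, or 10% of those tested, beside 7.10% of all features (2.84% higher and 4.27% lower). Psmd14, the deubiquitinase built into the 19S lid, stood at 1.98, 1.84 and 1.13 in knockout and 0.596, 0.53 and 0.35 in control samples. All knockout arrays lay above all controls, and the difference was 1.16 (SE 0.27; limma, adjusted p = 0.354), a mean 2.24-fold higher. Uchl1, a deubiquitinase best known from neurons, stood at 1.05, 0.61 and 0.058 in knockout and -0.18, -1.01 and -0.86 in control samples, a difference of 1.26 (SE 0.33; adjusted p = 0.430, limma). Cops5, the catalytic subunit of the COP9 signalosome, was counted here by its protein family. It differed by 0.56 (SE 0.27, limma adjusted p = 0.773), and by 0.08 with slide row as a block.

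In the other direction, Otud7b, an OTU family enzyme also called Cezanne, stood at 0.38, 0.47 and 0.56 in knockout and 1.68, 1.61 and 1.42 in control samples. The groups were well apart and the knockout mean was 0.466-fold the control mean (log2 difference -1.10, SE 0.20; limma, adjusted p = 0.249). The difference lay between -1.18 and -0.81 over the alternatives. With weighted arrays Psmd14 (1.35, adjusted p = 0.0235), Uchl1 (1.37, adjusted p = 0.0498) and Otud7b (-1.10, adjusted p = 0.0260) passed, among 192 of all 19199 features. After blocking on slide row the differences were 0.64 for Psmd14, 0.74 for Uchl1 and -1.01 for Otud7b, and none passed. Josd2, a Josephin family deubiquitinase, differed by -0.55 (SE 0.32; limma, adjusted p = 0.869). Of 13 partner proteins of USP enzymes, 12 were tested, with 7 higher and 5 lower means, a median of 0.10 and none past the threshold; Stam2, an endosomal partner of Usp8, differed by -0.54 (SE 0.44; limma, adjusted p = 0.958).

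Set beside the proteasome itself, the USP genes stayed near the middle of all features. The 14 genes of the 20S core had a median difference of 1.05, all 14 with higher means, beside 10764 of all 19199 features. Of the 14, 13 had an unadjusted p under 0.05 by limma, beside 2.84% of all features higher at that p. None of the 14 passed the threshold over all features. With slide row as a block their median was 0.64. Of the USP genes, 1 of 33 differed by more than 1 on the log2 scale, beside 727 of all 19199 features and 10 of the 14 core genes. The 5th and 95th percentiles of all features were -0.72 and 0.62, and Usp5 alone among the USP genes lay outside them.

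**Figure D5:**
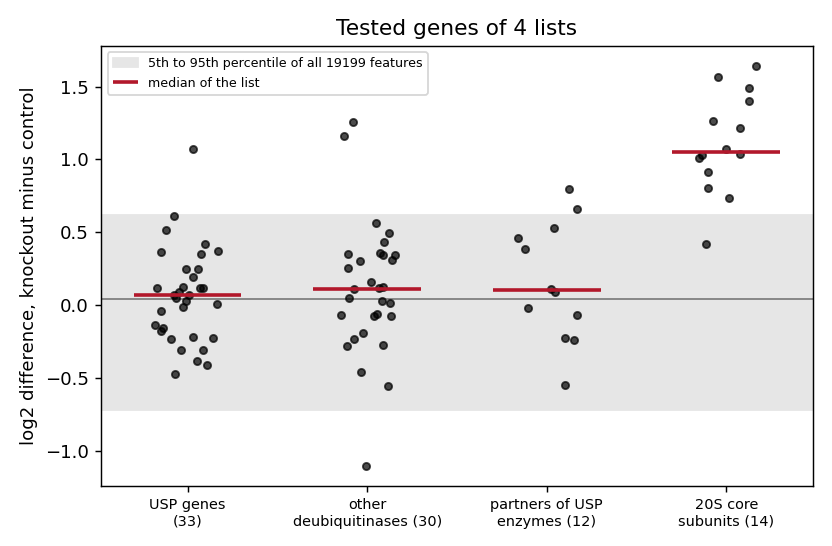
Log2 differences of single tested genes (points) in 4 lists, with list medians (red) of 0.068 for USP genes, 0.11 for other deubiquitinases, 0.10 for partners of USP enzymes and 1.05 for the 20S core. The grey band spans the 5th to 95th percentile of all 19199 features, from -0.72 to 0.62, and the grey line is their median; 1 USP gene, Usp5, lies outside the band.

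Proteasome genes are known to be induced through antioxidant response elements bound by the factor NRF1 when proteasome activity falls. The core of that element, TGACNNNGC on either strand, was looked for in RefSeq promoter windows (300 bases around each start, most of them before it, build GRCm38.p6). A window was at hand for 40 of the 50 USP genes, and 10 of them, or 25%, held it, beside 14% of all 27025 genes (12.4% of windows). Of these 10, 6 were tested: Usp2, Usp10, Usp17l5, Usp25, Usp32 and Usp36, of which 4 had higher and 2 lower means, with differences between -0.31 and 0.12. The full element TGACTCAGC, which lies within the core pattern, was in the windows of Usp10 and Usp26, beside 0.503% of all genes. Usp5 had no window in the table, and Usp38 held no match in its window.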

How the data were processed

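Each of 6 mice gave 1 Agilent array. Per the file headers, the authors' scanner files hold linear intensity, the processed signal being background-subtracted and detrended by Feature Extraction 10.7.1.1, while the submitters' processing notes name version 9.5.1.1. The deposited value table also holds linear intensity and has the same median, 17.7, on every array; the method behind it is not given in the sources used here.

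Each array's 75th percentile was subtracted from its log2 values. Outlier-flagged spots were left out and spots of 1 probe averaged. Feature, probe and member rules are given in the report. The test was limma 3.58.1 (lmFit, eBayes; R 4.3.3), run over 19199 features, with Benjamini-Hochberg adjustment over all of them. Scripts were tested on simulated data.

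The members and lists were chosen with earlier results of these data known; the 20S list was added last. Text named Psmc4, the 8 tested members with the smallest p in each direction, the smallest-p member of each role, and, from the other deubiquitinases and partners, the 3 of smallest p per direction. Usp7, Usp9x, Usp36, Usp47 and Usp54 were added after their values were seen. Alternatives covered background correction, scaling, filters, probes, the deposited table, the test, slide row, the replicate number and single arrays.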

Additional observations from a re-analysis of the deposited data

How the results depend on the processing

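No USP gene passed the threshold in any alternative except weighted arrays, where 1 did (Usp5). Over all features, 192 passed with weighted arrays, 3 with an intensity trend, 2 with median scaling and 1 each with normexp, quantile normalization and the deposited table. Of the 33 tested members, 11 kept the sign of their difference in all 20 alternatives and 22 did not. The count of members at an unadjusted p under 0.05 with a higher mean was 1 with normexp, an intensity trend or no filter. In these settings 1.93%, 2.51% and 2.51% of all features were higher at that p. Weighted arrays gave 5, beside 10.2% of all features, and fits without single arrays 0 to 1, beside 2.18% to 4.47%. The count with a lower mean was 1 without a filter, beside 2.45% of all features. It was 0 without any single array, beside 2.96% to 4.83%. With slide row blocked or on row 2 alone, knockout 3 is the only knockout array compared, so these counts are not given. The count of members without overlap was 1 with normexp or median scaling, 6 of 50 without a filter, and 3 to 7 without single arrays. For these settings the share of all features without overlap was not computed, so the counts have no background beside them. The median difference was -0.10 with slide row blocked or on row 2 alone, beside 0.018 over all features. Without single arrays it was 0.02 to 0.09, beside 0.0063 to 0.049 over all features. The cause was not tested.

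With slide row as a block, and equally within slide row 2, signs turned for 10 of 33 members, the largest turned value being 0.54 for Usp8. Among genes followed in every alternative these were Usp42 (-0.08), Usp6nl (-0.07), Usp7 (-0.11) and Usp9x (-0.26), beside the partner Stam2 (0.32). They turned with weighted arrays for 6 members, among them Usp11 (0.23), Usp46 (0.08), Usp54 (-0.01) and Usp17l5 (-0.02), and with the mean of probes for Usp7 (-0.09). Without single arrays, ranges that crossed 0 were -0.41 to 0.02 for Usp10, -0.24 to 0.30 for Usp17l5, -0.04 to 0.30 for Usp36, -0.79 to 0.12 for Usp46, -0.11 to 0.20 for Usp47, -0.02 to 0.46 for Usp50, -0.05 to 0.68 for Usp51, -0.19 to 0.37 for Usp54 and -0.07 to 0.73 for Usp6nl. Psmc4 ranged from -1.01 to -0.76.

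Replicate numbers are shared by the groups, but same-numbered arrays did not deviate together (correlations of 0.0721, -0.0167 and 0.0913), although 4 of 6 arrays correlated best with the array of their own number. With the replicate number as a block, 0 members were called, as without it. At an unadjusted p under 0.05 by limma 2 were higher, also as without it, beside 3.01% of all features. Precision is limited by 3 arrays a group, and by dim probes for the 17 genes not tested.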
